A study of Homo sapiens with 12 samples.

Results

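MAP1B and 9 other genes of the microtubule system were followed in 12Z cells, an immortalized human epithelial cell line from ectopic endometriosis. The 10 members were taken by gene symbol, with MAP1B as the gene of interest, out of 60617 genes counted, and all 10 were among the 23041 genes that averaged 1 count or more over the libraries and were tested. The members were MAP1A, MAP1B, MAP1S, MAP2, MAP4, MAPT, MAPRE1, STMN1, TUBB3 and TUBB6. MAP1B was selected on its lower count in Viperin than in Control libraries. The other members were chosen by their names around it, with earlier results of these data known. Values of Viperin against Control are therefore given here as a description, with no test.

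The experiment was mRNA-seq of 12 libraries in 4 groups of 3, from 3 independent experiments per the methods of the study. Viperin + Insulin cells carried the pCAG Viperin plasmid and received 100 nM insulin, and Viperin cells carried that plasmid and received vehicle. Insulin cells carried the pCAG empty vector and received 100 nM insulin, and Control cells carried the empty vector and received vehicle. All 4 groups were transiently transfected and taken off serum 4 h before treatment. They were collected 24 h after treatment, and the methods describe no return of serum, so even Control cells were starved and held a plasmid.

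Each library held 25979022 to 46889002 read pairs assigned to genes, and a gene's level is given as CPM, its counts scaled to library size (counts per 1000000, with TMM factors between libraries). RSAD2, the gene of the antiviral protein Viperin, held 10862 to 28665 counts in the 6 Viperin plasmid libraries, against 69 to 183 in the 6 empty vector libraries. Keratins matched the epithelial label (KRT8, 1173 to 1429 CPM), but the epithelial adhesion genes EPCAM and CDH1 reached at most 0.828 CPM and 2.003 CPM, and all 9 of 9 mesenchymal markers were over 10 CPM in every library. Of 12 neuronal markers, 2 were over 1 CPM in every library, INA at 19.1 to 25.3 CPM and SNAP25 at 3.68 to 6.23 CPM, while ELAVL4 had 0 counts and DCX at most 1 count. Control library 1 and Viperin library 3 had the largest shares of reads mapping to several places, 13.9% and 12.1%.

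Microtubules are hollow polymers of alpha- and beta-tubulin that grow and shrink mainly at their plus ends. Lattice-binding proteins of the MAP1 and MAP2/MAP4/tau families stabilise them, end-binding proteins such as EB1 track the growing plus end, and stathmin holds free tubulin dimers and favours shrinkage. MAP1B is best known from developing neurons, where it is made as a precursor that is cut into a heavy and a light chain, and it works in axon growth. MAP1A, its close relative, prevails in mature neurons, and MAP1S is found in most tissues.

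MAP1B (ENSG00000131711.15) lies at chr5:72107234-72209565 of GRCh38 on the plus strand, and MAP1A (ENSG00000166963.13) at chr15:43510958-43531620 on the plus strand. The 250 bases before the RefSeq start of each are shown because MAP1B and MAP1A were lower in Viperin than in Control cells in every library. MAP1S, also of the MAP1 family, overlapped between these groups, and its window is not shown. MAP4, of another family, was also lower in every library, and its window is not shown. The sequences are from RefSeq (GRCh38.p14), 5′ to 3′ on the gene's own strand, at chr5:72107225-72107474 for MAP1B and chr15:43510704-43510953 for MAP1A. Capitals mark matches, searched for on both strands, to the letters of 3 common promoter elements. These are the box named after TATAAA, which places the start site, the box named after CCAAT, bound by the factor NF-Y, and GGGCGG, bound by SP1.
MAP1B: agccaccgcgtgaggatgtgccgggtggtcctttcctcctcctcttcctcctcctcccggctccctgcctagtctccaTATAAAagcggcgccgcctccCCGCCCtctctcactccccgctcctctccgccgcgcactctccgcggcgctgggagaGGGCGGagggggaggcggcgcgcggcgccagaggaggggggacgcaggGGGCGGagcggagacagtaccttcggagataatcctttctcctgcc
MAP1A: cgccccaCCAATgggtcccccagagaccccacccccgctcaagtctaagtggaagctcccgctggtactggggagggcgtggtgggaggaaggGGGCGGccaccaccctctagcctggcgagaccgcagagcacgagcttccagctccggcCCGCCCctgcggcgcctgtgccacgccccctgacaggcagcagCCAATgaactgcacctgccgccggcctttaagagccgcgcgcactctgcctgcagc

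The MAP1B window held 1 TATAAA match and 3 GGGCGG matches, and the MAP1A window held 2 CCAAT matches and 2 GGGCGG matches. The TATAAA match begins 172 bases before the RefSeq start shown, and whether it places that start was not tested. Among 35116 RefSeq windows of the same length, TATAAA was found in 10.7%, CCAAT in 32.0% and GGGCGG in 42.6%. GTAAACA, a forkhead motif, matched neither window on either strand and was found in 2.98% of the windows. The G and C content was 70% for MAP1B and 70.4% for MAP1A. The RefSeq table holds 2 start sites for each gene, of which the upstream one is shown. GENCODE starts the MAP1B gene at position 72107234, inside the MAP1B window. Nearly all of that window, with all its marked matches, therefore lies downstream of the GENCODE start.

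Divided by the length of all annotated exons, MAP1B was an abundant transcript of these cells. MAPRE1, which encodes EB1, averaged 134.6 CPM per kb of exon over the 12 libraries (125 to 149), STMN1 85.8 (79.7 to 91.6) and MAP1B 69.3 (62.6 to 80.7). TUBB6, a beta-tubulin, averaged 57.4 CPM per kb (54.6 to 61.7) and MAP4, the main lattice-binding protein of non-neuronal cells, 37.1 (35.7 to 42.0). The ranges of STMN1 and MAP1B overlapped over the groups. Within every library, STMN1 lay above MAP1B, and MAP1B above TUBB6, on this scale. MAP1B stood above 97.9% of the 22946 tested genes with an exon length. MAP1A averaged 10.02 CPM per kb (8.01 to 12.1) and MAP1S 8.14 (7.56 to 9.20), and their ranges overlapped. Within every library MAP1A lay above MAP1S, by little in Viperin library 2 (8.01 against 7.89). These levels rest on the union of annotated exons, which is 6247 bases for STMN1, against 1443 for its main transcript, and 3941 for TUBB6, against 1879. The order changes with the main transcripts, an alternative added after the data were seen. STMN1 then averaged 372 CPM per kb, MAPRE1 134.6, TUBB6 120.4, MAP1B 73.7 and MAP4 60.3, so TUBB6 lay above MAP1B in every library. The ranges of MAP1B and MAP4 then overlapped, although MAP1B lay above MAP4 within every library. MAP1S (12.2) then averaged more than MAP1A (10.4).

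**Figure D1:**
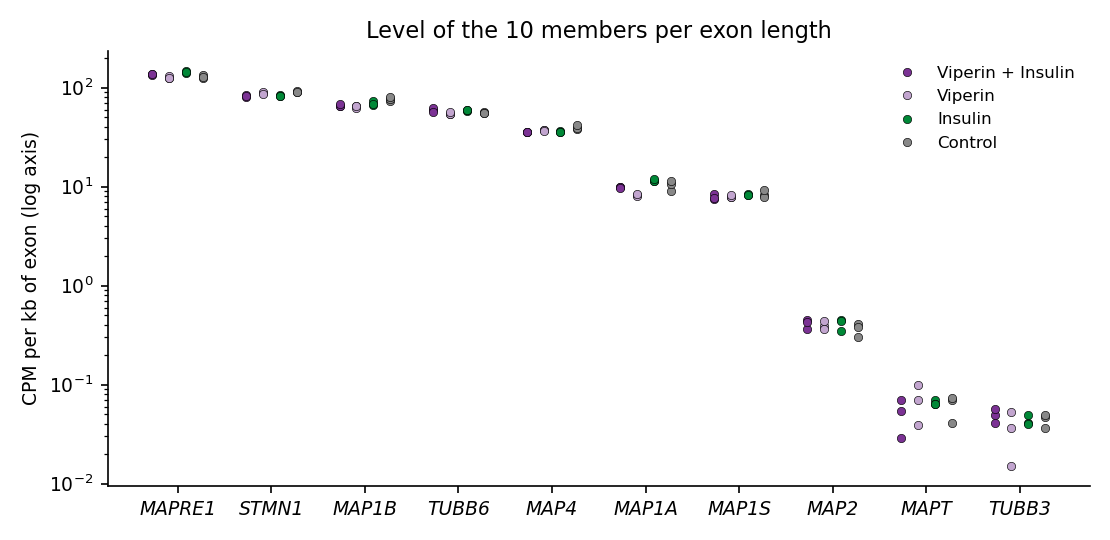
Level of the 10 members in CPM per kb of exon, on a log axis, with 1 point per library in Viperin + Insulin, Viperin, Insulin and Control cells. MAP1B lies at 62.6 to 80.7 CPM per kb, MAP1A at 8.01 to 12.1, and MAP2 and MAPT lie below 0.45 in every library; the TUBB3 counts cannot be read as its expression.

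The other members with clear expression lie at chr20:32819954-32850405 on the plus strand (MAPRE1, ENSG00000101367.9), chr1:25884181-25906991 on the minus strand (STMN1, ENSG00000117632.23), chr3:47850690-48089272 on the minus strand (MAP4, ENSG00000047849.21), chr18:12307669-12344320 on the plus strand (TUBB6, ENSG00000176014.13) and chr19:17719242-17734513 on the plus strand (MAP1S, ENSG00000130479.11). Counts cover their annotated exons.

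MAP2 and MAPT, known chiefly from neurons, were at low levels. MAP2, a protein of dendrites, held 108 to 239 counts per library and averaged 0.398 CPM per kb, and MAPT, which encodes tau, held 23 to 51 counts and averaged 0.0618. TUBB3, the neuronal class III beta-tubulin, held 4 to 20 counts, but these cannot be read as its expression. Of the 1706 bases of its main transcript, 1584 (92.85%) are shared on the same strand with a read-through gene (ENSG00000198211), and reads that fall on more than 1 gene were not counted. That read-through gene held 0 counts in all 12 libraries. TUBB6 shares 21.24% of its exon bases with AFG3L2 on the other strand, where 714 to 1409 counts per library fell, and the strand-specific counts used here keep the genes apart.

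MAP1B was lower in all 3 Viperin libraries than in any Control library. It measured 820.3, 785 and 811 CPM in the Viperin libraries, against 917, 969 and 1012 CPM in the Control libraries. The means were 805 ± 18.4 CPM in Viperin cells and 966 ± 47.4 CPM in Control cells (SD, n = 3 each). The log2 fold change was -0.26 (SE 0.04), a level lower by 16.7% in Viperin cells, and it stayed between -0.30 and -0.23 whichever of the 12 libraries was left out. As the choice of MAP1B rests on this contrast, no p is given for it, and the range with a library left out is no separate support.

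The same plasmid comparison under insulin used 6 libraries on which the choice of MAP1B does not rest, and there MAP1B did not pass the test. It measured 823, 822 and 861 CPM in the Viperin + Insulin libraries, against 917, 835 and 859.9 CPM in the Insulin libraries. The groups overlapped, with means of 835 ± 22.2 CPM in Viperin + Insulin cells and 871 ± 41.9 CPM in Insulin cells (SD, n = 3 each). The log2 fold change was -0.06 (SE 0.04, 95% interval -0.13 to 0.01, adjusted p = 0.492 by the quasi-likelihood test of edgeR). The adjusted p ranged from 0.0983 to 0.893 over 22 alternative settings, so the call was the same in all of them. The interval includes both no difference and a level lower by a log2 value of 0.13. It does not reach the -0.26 of Viperin over Control, the contrast on which MAP1B was chosen. Whether these plasmid comparisons differ was not tested for MAP1B.

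MAP1A, the relative of MAP1B, was lower with the Viperin plasmid in both pairs of groups. It measured 88.5, 85.3 and 89.9 CPM in the Viperin libraries, against 95.8, 113 and 120.3 CPM in the Control libraries, with no overlap. The log2 fold change was -0.32 (SE 0.05), given as a description since it belongs to the contrast that chose the gene set. Under insulin, MAP1A measured 106, 106 and 104 CPM in the Viperin + Insulin libraries, against 120.1, 122 and 128 CPM in the Insulin libraries. This was a fall by 0.23 on the log2 scale (SE 0.05, 95% interval -0.34 to -0.12, adjusted p = 0.0115 by the same test in edgeR), again without overlap. The adjusted p was 0.0699 without Insulin library 3, 0.0562 without Viperin + Insulin library 1, 0.0627 without library 2 and 0.0754 without library 3 of that group, so the call needed each of these 4 libraries.

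**Figure D2:**
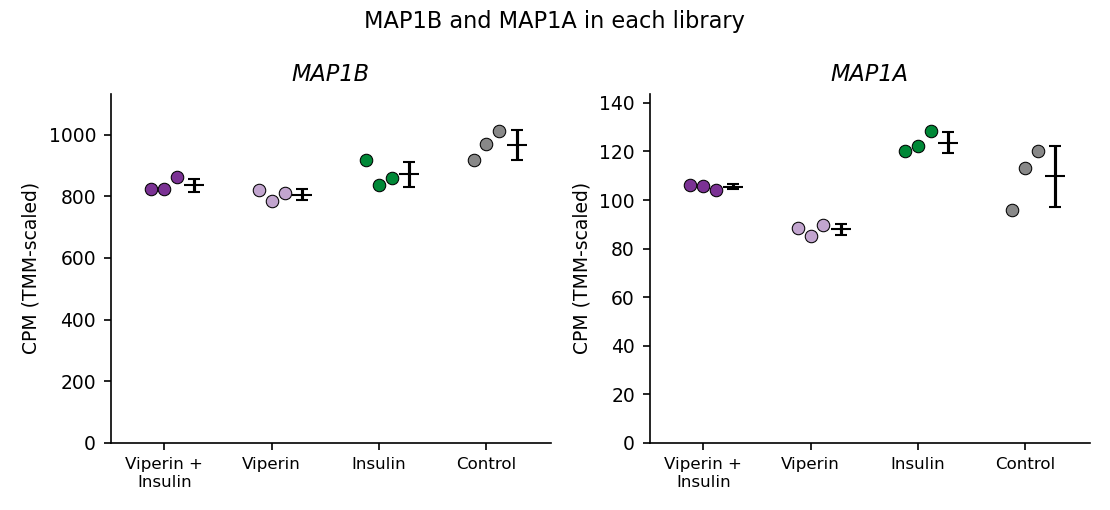
MAP1B (left) and MAP1A (right) in CPM for each of the 12 libraries, as circles, with the mean ± SD of each group (n = 3) as bars beside them; both axes start at 0. The Viperin points (785 to 820.3 CPM for MAP1B, 85.3 to 89.9 CPM for MAP1A) lie below all Control points, and the Viperin + Insulin points lie below all Insulin points only for MAP1A.

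Of the 10 members, MAP1A was the 1 called in Viperin + Insulin against Insulin, where 3.09% of all tested genes were called and 0.994% were called lower. MAPRE1 and MAP1A were the 2 members whose Viperin + Insulin libraries all lay below the Insulin libraries, which held for 9.88% of the tested genes. MAPRE1 measured 349, 347 and 356 CPM in Viperin + Insulin libraries, against 364, 382 and 368 CPM in Insulin libraries, and its log2 fold change of -0.08 (SE 0.04) did not pass the test (adjusted p = 0.23, edgeR). The other 8 members had an adjusted p from the same edgeR fit of 0.472 or more. In Viperin against Control, MAP1A, MAP1B and MAP4 were the 3 members that lay lower with no overlap, beside 7.63% of the tested genes. MAP4 measured 561, 554 and 549 CPM in the Viperin libraries, against 569.9, 589 and 629 CPM in the Control libraries, and nearly the same in both insulin groups, 536, 537 and 538 CPM in Viperin + Insulin and 548, 535 and 535 CPM in Insulin libraries.

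Sums of cell type markers also differed between the plasmids. COL3A1, VIM and COL1A1 were the largest parts of the mesenchymal sum, and KRT8 and KRT18 of the epithelial sum. Single markers are not compared between the groups here. The 9 mesenchymal and stromal markers summed to 6151 to 6312 CPM in Viperin libraries, against 5257 to 5789 CPM in Control libraries, and to 6017 to 6291 CPM in Viperin + Insulin libraries, against 5431 to 5608 CPM in Insulin libraries. The 8 epithelial markers summed to 2450.4 to 2541 CPM in Viperin libraries, against 2587 to 2658 CPM in Control libraries, and overlapped between the insulin groups. The part of these markers in the MAP1A and MAP1B values was not tested, and in bulk RNA fewer cells of a type and less RNA per cell cannot be told apart. With Control library 1 and Viperin library 3 both left out, the log2 fold change of Viperin over Control was -0.30 for MAP1B and -0.43 for MAP1A.

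With insulin, MAP1B lay below vehicle with the empty vector and close to vehicle with the Viperin plasmid. Against Control, all 3 Insulin libraries were lower, as for 10.5% of the tested genes, with a log2 fold change of -0.15 (SE 0.04), although Insulin library 1 (916.9 CPM) and Control library 1 (917.4 CPM) nearly met. Against Viperin, all 3 Viperin + Insulin libraries were higher, as for 11% of the tested genes, with a log2 fold change of 0.05 (SE 0.04, 95% interval -0.02 to 0.13), although the lowest of them (822.0 CPM) was close to the highest Viperin library (820.3 CPM). Both comparisons contain a group of the contrast that chose MAP1B, so they are described and not tested. The insulin response averaged over both plasmids does not draw on that contrast. It was -0.05 on the log2 scale (SE 0.03, 95% interval -0.10 to 0.00, adjusted p = 0.255, edgeR), and MAP1B was not called.

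MAP1A was higher with insulin, past the test with the Viperin plasmid and averaged over both plasmids. The Insulin libraries (120.1, 122 and 128 CPM) overlapped with the Control libraries (95.8, 113 and 120.3 CPM), where the log2 fold change was 0.17 (SE 0.05, adjusted p = 0.0615, edgeR). Without Control library 3 the same comparison gave 0.24 and an adjusted p of 1.5e-04, and it was also called with limma-voom (0.0449) and with no filter (0.00137). The Viperin + Insulin libraries all lay above the Viperin libraries, as for 11% of the tested genes. The log2 fold change was 0.26 (SE 0.05, adjusted p = 0.0029, edgeR). This comparison shares the Viperin libraries with the contrast that chose MAP1B, in which MAP1A was lower too. Averaged over both plasmids the rise was 0.22 (SE 0.04, 95% interval 0.14 to 0.29, adjusted p = 2.0e-04, edgeR). The ratio of MAP1B to MAP1A, per kb of exon, was 6.73 ± 0.24 in Viperin + Insulin, 7.78 ± 0.11 in Viperin, 5.99 ± 0.43 in Insulin and 7.51 ± 0.54 in Control cells (SD, n = 3 each).

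Averaged over both plasmids, insulin raised MAPRE1, MAP1A and TUBB6 and lowered STMN1 and MAP4, so 5 of the 10 members were called. Among all tested genes 11.7% were called, 5.76% higher and 5.97% lower. As the members were chosen with earlier results of these data known, the count of members beside this share is a description. MAPRE1 measured 364, 382 and 368 CPM in Insulin libraries, against 323, 345 and 328 CPM in Control libraries. It measured 349, 347 and 356 CPM in Viperin + Insulin libraries, against 321, 332 and 323 CPM in Viperin libraries. All insulin-treated MAPRE1 values lay above their vehicle group, which held for 9.69% of the tested genes with the empty vector and 11% with the Viperin plasmid, and the averaged log2 fold change was 0.13 (SE 0.02, 95% interval 0.08 to 0.18, adjusted p = 4.4e-05, edgeR). TUBB6, a class V beta-tubulin of broad expression, rose by 0.09 (SE 0.03, 95% interval 0.04 to 0.14, adjusted p = 0.0106, edgeR). It measured 229.5, 233 and 235 CPM in Insulin libraries, against 226, 218 and 218 CPM in Control libraries, and 233, 243 and 226 CPM in Viperin + Insulin libraries, against 216, 215 and 222 CPM in Viperin libraries. Its adjusted p was 0.0634 without Viperin + Insulin library 2.

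STMN1, which encodes stathmin, fell with insulin by a similar size. It measured 522, 514 and 512 CPM in Insulin libraries, against 561, 572 and 559.6 CPM in Control libraries. It measured 528, 498 and 516 CPM in Viperin + Insulin libraries, against 547, 568 and 537 CPM in Viperin libraries. All insulin-treated libraries lay below their vehicle group, as 10.5% of the tested genes did with the empty vector and 10.1% with the Viperin plasmid, and the averaged log2 fold change was -0.11 (SE 0.02, 95% interval -0.16 to -0.07, adjusted p = 3.9e-04, edgeR). MAP4 fell by 0.10 on the log2 scale (SE 0.02, 95% interval -0.15 to -0.05, adjusted p = 0.0042, edgeR). Its values above show no overlap under either plasmid, although Viperin + Insulin and Viperin differed by -0.05 only (adjusted p = 0.583, edgeR).

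**Figure D3:**
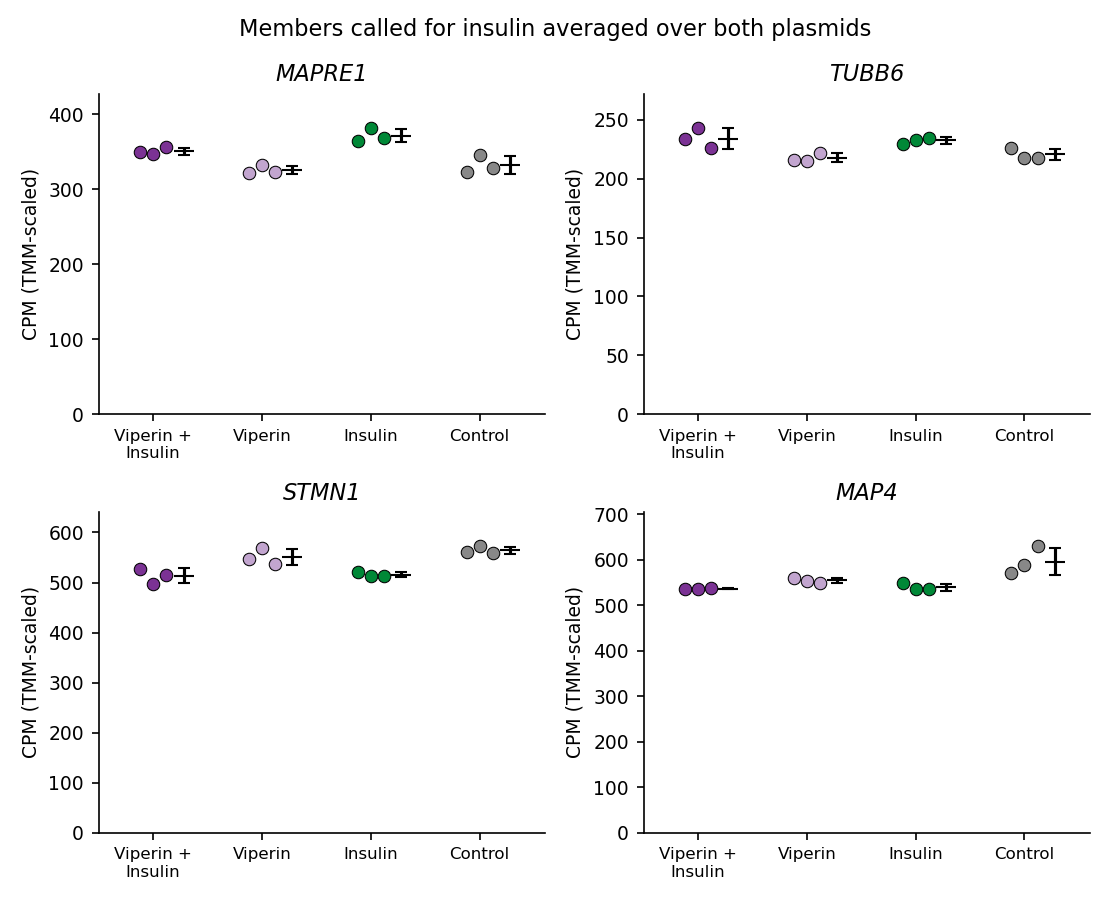
MAPRE1, TUBB6, STMN1 and MAP4 in CPM for each of the 12 libraries, as circles, with the mean ± SD of each group (n = 3) as bars beside them; all axes start at 0. MAPRE1 and TUBB6 lie higher, and STMN1 and MAP4 lower, in each insulin group than in the vehicle group with the same plasmid, with no overlap.

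The sum of the epithelial markers, made up mostly of KRT8, KRT18 and KRT19, also differed with insulin. The 8 summed to 2686 to 2860.2 CPM in Insulin libraries, against 2587 to 2658 CPM in Control libraries. They summed to 2584 to 2696 CPM in Viperin + Insulin libraries, against 2450.4 to 2541 CPM in Viperin libraries. Neither pair overlapped, and of single tested genes 9.69% lay higher with no overlap with the empty vector and 11% with the Viperin plasmid. The sums of the 9 mesenchymal markers overlapped between insulin and vehicle under both plasmids. The part of these markers in the insulin responses of the members was not tested.

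Within 1 plasmid, fewer of these calls passed. In Insulin against Control, 3 of the 9 members other than MAP1B were called, beside 5.49% of the tested genes. They were MAPRE1 (log2 fold change 0.16, SE 0.04, adjusted p = 0.0014), MAP4 (-0.14, SE 0.04, adjusted p = 0.0047) and STMN1 (-0.13, SE 0.03, adjusted p = 0.0127, all from edgeR). The MAP4 call was lost without Control library 3 (adjusted p = 0.0593), and that of STMN1 without Control library 2 (0.0529), Insulin library 2 (0.0753) or Insulin library 3 (0.0898). In Viperin + Insulin against Viperin, 1 of 9 was called (MAP1A), beside 4.56% of the tested genes. Leaving out Control library 1 or Control library 3 raised this count to 4, with MAPRE1, STMN1 and TUBB6 added at adjusted p values of 0.0222 to 0.0498, and in the fit of all libraries these 3 had 0.0652, 0.0806 and 0.0849. The insulin response of these 9 members did not differ between the plasmids past the test, with an adjusted p of 0.884 or more for all 9. For that difference edgeR called 0 of the 23041 genes, with 1296 at an unadjusted p under 0.05, and DESeq2 and limma-voom called 0 and had 865 and 1343.

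**Figure D4:**
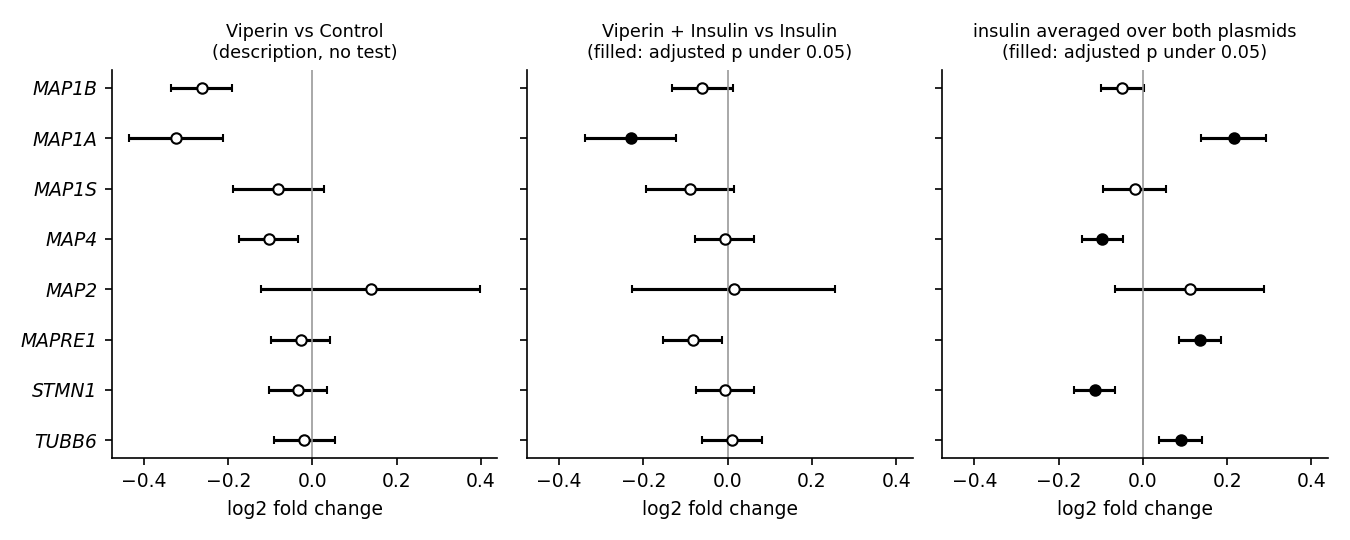
log2 fold change with its 95% interval for 8 members in Viperin over Control, Viperin + Insulin over Insulin, and insulin averaged over both plasmids; MAPT, with a wide interval, and TUBB3, whose counts cannot be read, are not drawn. Filled points passed an adjusted p under 0.05, and the first panel is a description without a test. MAP1B lies at -0.26, -0.06 and -0.05, and MAP1A at -0.32, -0.23 and 0.22.

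The low members stayed within wide limits. MAP2 ranged from 3.56 to 5.31 CPM and MAPT from 0.531 to 1.80 CPM over the 12 libraries, and insulin averaged over both plasmids gave log2 fold changes of 0.11 (SE 0.09, adjusted p = 0.525, edgeR) and -0.15 (SE 0.20, adjusted p = 0.738, edgeR). MAP1S, at 37.3 to 45.4 CPM, gave -0.02 (SE 0.04, 95% interval -0.09 to 0.06). The biological coefficient of variation, the spread between replicates beyond counting error, was 3.30% to 4.45% for the 7 abundant members, 6.91% for MAP2 and 18.5% for MAPT.

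Some other tubulin genes also rose with insulin. The gene lists, here and below, were chosen with earlier results of these data known, so their counts beside all genes are descriptions. Of the 8 tested beta-tubulins, TUBB6 and 3 others rose with insulin averaged over both plasmids, 4 in all, with a list median of 0.13 beside -0.002 for all tested genes. Among all tested genes, 5.76% were called higher and 5.97% lower. TUBB2A averaged 40.1 ± 0.32 CPM in Viperin + Insulin and 32.0 ± 1.18 CPM in Viperin cells, and 40.2 ± 2.01 CPM in Insulin and 33.0 ± 2.06 CPM in Control cells (SD, n = 3 each), an averaged log2 fold change of 0.31 (SE 0.04, adjusted p = 2.6e-09, edgeR). TUBB4B rose by 0.14 and TUBB by 0.11, both ubiquitous beta-tubulins. Of the 6 tested alpha-tubulins, TUBA4A (0.23), TUBA1C (0.19) and TUBA1B (0.09) rose and TUBA1A (-0.09) fell and the other 2 did not pass, with a list median of 0.01. Without Viperin + Insulin library 3, TUBA1A was no longer called, and without Viperin + Insulin library 2 the beta-tubulin count was 3. Near-identical tubulin genes and pseudogenes share reads, so values of single tubulin genes are uncertain.

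Some tubulin folding genes rose with insulin. Of 21 tested genes for the chaperonin CCT, prefoldin and the tubulin cofactors, 10 rose with insulin and the other 11 did not pass the test, with log2 fold changes from -0.11 to 0.22 over the list and a median of 0.06. Among all tested genes, 5.76% were called higher. The 10 list genes that rose were CCT2, CCT3, CCT4, CCT5, CCT6A, CCT7 and TCP1, subunits of the chaperonin that folds tubulin and actin, and the prefoldin subunits PFDN1, PFDN2 and VBP1. CCT5 averaged 637 ± 8.48 CPM in Viperin + Insulin and 547 ± 7.66 CPM in Viperin cells, and 689.7 ± 21.8 CPM in Insulin and 591 ± 10.7 CPM in Control cells (SD, n = 3 each). Its averaged log2 fold change was 0.22 (SE 0.02, adjusted p = 5.7e-11, edgeR), and those of CCT2 and TCP1 were 0.20 and 0.16. The count of risen folding genes was 7 to 10 in the settings tried.

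Most end-binding genes did not pass the test. Of 29 tested plus-end and minus-end genes, MAPRE1 rose, 5 fell and 23 were not called with insulin, with a list median of -0.01. Among all tested genes, 5.76% were called higher and 5.97% lower. CLIP3 fell by 0.22 (SE 0.03, adjusted p = 5.2e-09, edgeR) and CLIP4 by 0.21 on the log2 scale, both of the family of CAP-Gly linker proteins, and CLIP2, NAV3 and TACC2 were the others. Of 31 other lattice-binding genes, 3 rose and 2 fell. MTUS1 fell by 0.25 (SE 0.03, adjusted p = 2.9e-09, edgeR) and NUMA1, a protein of spindle poles, by 0.18, while MID1 rose by 0.11 with MID2 and KNSTRN. Only 1 of the last 3 was called without Control library 1, Insulin library 3 or Viperin + Insulin library 2.

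Enzymes that modify tubulin moved both ways. Of 23 tested, 6 fell and 2 rose with insulin, beside 5.97% and 5.76% of all tested genes, with a list median of -0.02. VASH1, which removes the terminal tyrosine of alpha-tubulin, fell by 0.24 (SE 0.05, adjusted p = 3.1e-04, edgeR), and the glutamylase TTLL5 by 0.11 and the deacetylase HDAC6 by 0.12. HDAC6 was no longer called without Viperin + Insulin library 3 (adjusted p = 0.0512), and the number lower was then 3. Neither higher call, TTLL4 or TTLL12, held without Control library 2 or without Viperin library 2.

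The remaining lists held few calls with insulin. In the MAP1 and light chain list of 10, MAP1A rose, as did the autophagy gene GABARAP, and its relative GABARAPL1 fell. GABARAP (log2 fold change 0.34) was not called with unstranded counts (0.04, adjusted p = 0.967) or without Control library 3, Insulin library 1 or Viperin + Insulin library 1 (0.0574 to 0.0628). GABARAPL1 (-0.10) was not called without Control library 1, Insulin library 2, Insulin library 3, Viperin library 1 or Viperin + Insulin library 2 (0.053 to 0.0902). STMN3 fell by 0.19 beside STMN1 among 3 tested stathmins, but its adjusted p of 0.0486 passed 0.05 in 8 of 21 other settings (0.0240 to 0.164), and failed without each of Control libraries 2 and 3, Insulin libraries 1 and 3, Viperin libraries 2 and 3 and Viperin + Insulin libraries 1 and 2. CAMK2D fell by 0.15 and MARK3 rose by 0.11 among 19 kinases of MAPs. AKAP9 fell by 0.15 among 16 genes of the gamma-tubulin complex (0.0532 without Control library 3), and KIF2C rose by 0.09 among 14 severing and depolymerising proteins. KIF2C was not called without Control library 1, Insulin library 2, Insulin library 3 or Viperin + Insulin library 2 (0.0624 to 0.0857). Of 12 partners and ligases of MAP1B, edgeR called 0, at a list median of 0.03. In all, 27 of 193 list genes rose and 20 fell, with a median log2 fold change of 0.003, where 5.76% of all tested genes were called higher and 5.97% lower.

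**Figure D5:**
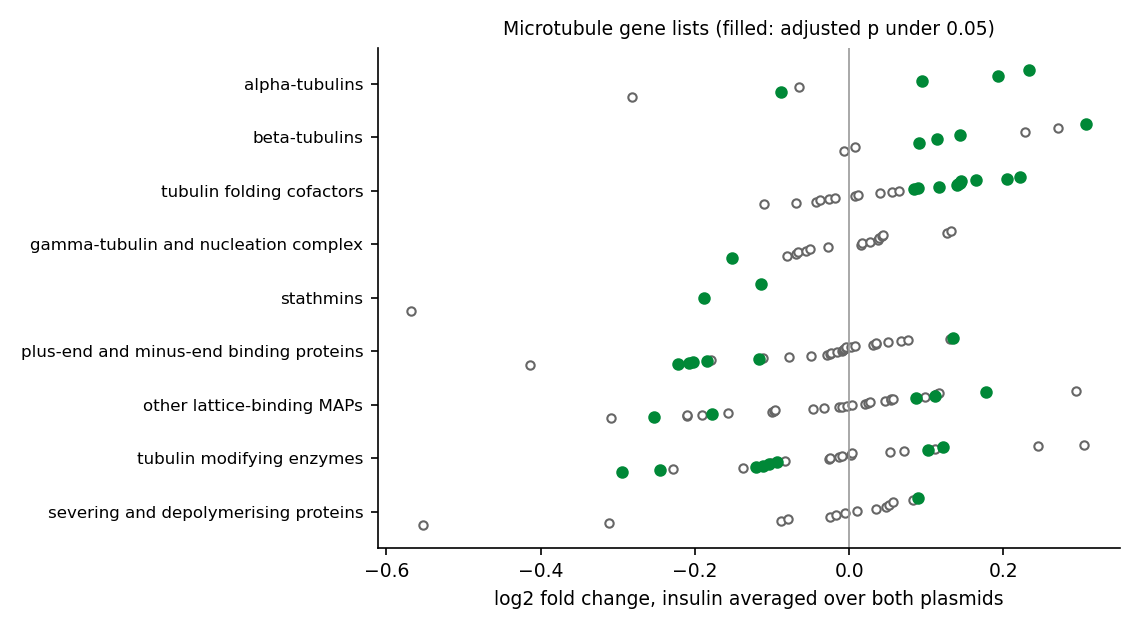
log2 fold change with insulin averaged over both plasmids for the genes of 9 microtubule lists, 1 point per gene, filled where the adjusted p was under 0.05. The filled points lie to the right for beta-tubulins (4 of 8) and tubulin folding cofactors (10 of 21), and on both sides for the alpha-tubulins, modifying enzymes, lattice-binding and end-binding lists. Among all tested genes, 5.76% were called higher and 5.97% lower.

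In Viperin + Insulin against Insulin, 6 of the 193 list genes rose and 4 fell, with a list median of -0.01 beside 0.005 for all tested genes. These are 10 of 193, where 3.09% of all tested genes were called. TUBGCP6, of the gamma-tubulin ring complex, averaged 27.9 ± 0.54 CPM in Viperin + Insulin and 23.0 ± 1.14 CPM in Insulin cells (SD, n = 3 each), a log2 fold change of 0.28 (SE 0.06, adjusted p = 0.0017, edgeR). PCNT, the scaffold pericentrin, was higher by 0.18 (SE 0.04, adjusted p = 0.0020, edgeR), and AKAP9, another centrosome scaffold, fell by 0.25 (SE 0.05, adjusted p = 0.0027, edgeR). PCNT averaged 127 ± 3.44 CPM in Viperin + Insulin, 112 ± 2.29 in Insulin, 124 ± 3.19 in Viperin and 126 ± 3.46 in Control cells (SD, n = 3 each). PCNT was lower in Insulin than in Control cells (-0.17, SE 0.04, adjusted p = 0.0025, edgeR), while its Viperin and Control libraries overlapped. KIF18B, a depolymerising kinesin, rose by 0.30 (SE 0.06, adjusted p = 0.0022, edgeR) and RASSF1, a microtubule-binding partner of MAP1B, by 0.34 (SE 0.07, adjusted p = 0.0021, edgeR). These 5 were called in all 22 alternatives. TUBB4B (-0.14), TUBB2B (0.18), CCT5 (-0.11) and MAPK8 (0.19) were the other 4 beside MAP1A. Without Insulin library 2, Insulin library 3 or Viperin + Insulin library 1 or 3, none of those 4 was called, and without Viperin + Insulin library 2 CCT5 and MAPK8 were not. The count of 10 called was 6 without Insulin library 2, 5 without Insulin library 3 or Viperin + Insulin library 1 or 3, and 17 without Control library 3.

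Across the 12 libraries, the levels of some members ran together. The Pearson correlation of log2 CPM was 0.78 between MAP1B and MAP4, 0.54 between MAP1B and MAP1A, 0.75 between MAP1A and MAPRE1, and -0.86 between STMN1 and TUBB6. Each is a description over 12 libraries that share the 4 groups and the scaling. Of 9361 genes with a mean of at least 10 CPM, TRIM33 (0.91), SVIP (0.91), NSDHL (0.90), ZBTB38 (0.89) and RFX7 (0.88) were most like MAP1B by this measure, and CEP76 (-0.92), FLCN (-0.90), MFSD14B (-0.90), CTNNA1 (-0.90) and MINPP1 (-0.90) were most opposed. The ranking includes the Viperin and Control libraries on which MAP1B was chosen. Differences of the ranked genes between those groups are therefore no separate support. SVIP averaged 32.7 ± 0.72 CPM in Viperin and 40.8 ± 4.89 CPM in Control cells, and 33.1 ± 1.89 CPM in Viperin + Insulin and 36.9 ± 1.54 CPM in Insulin cells (SD, n = 3 each). FLCN averaged 40.2 ± 0.62 CPM in Viperin and 32.3 ± 3.07 CPM in Control cells, and 41.7 ± 0.61 CPM in Viperin + Insulin and 35.9 ± 2.15 CPM in Insulin cells (SD, n = 3 each).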

How the data were processed

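The 12 mRNA-seq libraries were grouped by the labels. What was deposited is 1 raw count (read pairs) for each gene and library. To make them, the authors used cutadapt and Trim Galore for trimming, FastQC for quality control, and STAR for alignment (hg38) and counting, in versions not given in the sources used here. These counts are neither normalized, pooled nor filtered. Reverse-strand counts were used. Of 60617 IDs, 60357 matched symbols of GENCODE release 44, which also gave exon lengths and positions.

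Genes that averaged 1 count or more (23041) were scaled by TMM and fitted as 4 group means with edgeR 4.0.16 in R 4.3.3 (robust quasi-likelihood, prior count 2), with Benjamini-Hochberg adjustment over all of them. A gene was called where its adjusted p was under 0.05 (the study: 0.001). SEs come from the quasi-likelihood F. The DESeq2 and IHW analysis of the authors was not repeated. The script was checked on simulated counts with 200 changed genes.

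Alternatives were RLE size factors, RSAD2 and mitochondrial genes left out of library sizes, DESeq2 1.42.0, limma-voom (limma 3.58.1), filterByExpr, no filter, a replicate block, unstranded counts, only the groups compared, each library left out, and Control 1 with Viperin 3 left out. One description of the transfection names a pBabe vector, and the labels' pCAG is used here. The members and the 13 gene lists (207 genes, 193 tested) were chosen with earlier results of these data known. The genes named are the members, up to 3 genes per list with the smallest p among those called, the 5 most and 5 least like MAP1B, and RSAD2. TUBA1A, CLIP2, NAV3, TACC2, MID2, KNSTRN, TTLL4, TTLL12, CCT3, CCT4, CCT6A, CCT7, PFDN1, PFDN2 and VBP1 were named after their values were seen, to complete counts.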

Additional observations from a re-analysis of the deposited data

Results flagged for a closer look

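For MAP1B, the libraries of the insulin groups lay on opposite sides of their vehicle groups under the plasmids. All 3 Viperin + Insulin libraries lay above all 3 Viperin libraries, as for 11% of the tested genes, but by little (822.0 CPM for the lowest, against 820.3 CPM for the highest Viperin library), and the 95% interval of that log2 fold change, -0.02 to 0.13, includes 0. All 3 Insulin libraries lay below all 3 Control libraries, as for 10.5% of the tested genes. The log2 fold changes differed by 0.20 (SE 0.05). This difference was not tested, since the Viperin and Control libraries that enter it are those on which MAP1B was chosen. It was 0.17 to 0.24 with 1 library left out, a range that rests on the same choice and is no separate support.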

How the results depend on the processing

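The MAP1B results kept their direction and their side of the threshold in every setting tried, with log2 fold changes of -0.09 to -0.02 for Viperin + Insulin over Insulin and -0.07 to -0.03 for insulin averaged over both plasmids. Members called in Viperin + Insulin against Insulin numbered 1, and 2 with only the groups compared (MAPRE1, adjusted p = 0.0186), and 0 to 1 with a library left out. Members called in Viperin + Insulin against Viperin numbered 1, but 3 with DESeq2, 3 with limma-voom, 2 with unstranded counts, 4 with only the groups compared and 3 without Control 1 and Viperin 3. Genes called in Viperin + Insulin against Insulin numbered 711, but 1793 with only the groups compared, 1192 without Control 1 and Viperin 3, and 278 to 1039 with a library left out; list genes numbered 10, against 30, 19 and 5 to 17. With a library left out, genes called ranged from 627 to 1360 (1265 with all) for Insulin against Control and from 615 to 1393 (1050) for Viperin + Insulin against Viperin. For the difference of the insulin responses, 0 genes were called, but 37 with no filter, 7 with unstranded counts, 34 without Control 1 and Viperin 3, and 0 to 26 with a library left out. The cause of these shifts was not tested, and a library left out leaves its group with 2.

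No pairing by replicate number was visible. Deviations of same-numbered libraries correlated at -0.23 to 0.18, and those of libraries with other numbers at -0.24 to 0.23. With 3 libraries per group this cannot decide whether the numbers mark the independent experiments. With a replicate block, MAP1B in Viperin + Insulin over Insulin was -0.06 (adjusted p = 0.528, edgeR), genes called there numbered 705, MAP1A was called in Insulin against Control (adjusted p = 0.0109), which made 4 members there against 3, CCT5 in Viperin + Insulin against Insulin (0.0682) and STMN3 with insulin averaged (0.0515) were not called, and genes called for the difference of the insulin responses numbered 17. Counts of 23 to 51 for MAPT limit what can be seen of it.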
